A study of Homo sapiens with 6 samples.

Results

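Glypicans and syndecans are the main families of cell-surface heparan sulphate proteoglycans. The 8 genes described here, GPC1, GPC3, GPC4, GPC5, SDC1, SDC2, SDC3 and SDC4, were read by 8 probe sets, 1 per gene, of 12558 probe sets that are not controls. Members were taken by the gene symbol in the platform annotation, and GPC4 was picked because its signal was higher with ponasterone A (PonA), so its PonA values are a description and carry no test. The other 7 genes entered by name, in a list chosen with earlier results of these data known.

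Both families carry long heparan sulphate chains on a core protein, and the sulphate pattern of those chains binds growth factors, Wnts, chemokines and matrix proteins. Glypicans are held in the outer leaflet of the membrane by a glycosylphosphatidylinositol (GPI) anchor and can be cut free, whereas syndecans span the membrane and have short cytoplasmic tails that bind PDZ proteins and the cytoskeleton. In the brain astrocytes and glioma cells make members of both families, which act as co-receptors for fibroblast growth factors and other ligands.

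U373 cells, an established line from a human glioblastoma, were profiled for RNA on 6 Affymetrix U95 Av2 arrays, with 1 array per condition. Untransfected cells were left untreated and taken at day 1. Cells transfected with syk, a tyrosine kinase gene, were left untreated at day 1 and at day 2, were given ethanol, the solvent, at day 1, or were given ethanol with PonA at day 1 and at day 2. PonA is a steroid that switches on genes behind an ecdysone-responsive promoter, and the labels give it at 10 µM. No untransfected cells received PonA, no ethanol array stood at day 2, and the labels do not say whether the transfected cells were 1 clone or whether cultures were independent. Values are MAS5 signal, a linear brightness per probe set, and the number of arrays limits their precision.

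On these arrays the floor, the 40th percentile of each array's signals below which values were not ordered, lay between 22.7 and 26.5 signal units. Any pair of arrays had a Pearson r between 0.946 and 0.985 over floored log2 signals, where probe sets are not independent. The signal ratio of the 3' to the 5' probe set of beta-actin was 0.960 to 0.987 at day 1 and 1.20 to 1.21 on both day 2 arrays, a difference whose part in day effects was not tested. For GAPDH the same ratio was 0.939 to 1.01 at day 1, and 0.946 and 1.04 at day 2. Spike-in control probe sets had a geometric mean signal of 157 on the untransfected array and 271 to 501 on the transfected arrays. The part of that difference in transfection effects was not tested. Of 9 astroglial markers on the array, 5 lay above the floor on all 6 arrays and AQP4 on none. Their summed signal was 8778 to 9606 with PonA and 8929 to 10510 on the other transfected arrays, and the glial filament gene GFAP gave 1533 without the construct and 103 to 229 with it. Of 8 tested, 1 rose with PonA, as did 2.58% of all probe sets above the floor both with and without PonA. SLC1A3, a glutamate transporter gene, gave 193 and 225 with PonA and 22.8 to 38.8 on the other transfected arrays (limma adjusted p = 0.00410). Of the 6 neuronal markers, GAP43 alone lay above the floor on all arrays and SNAP25 on none. The 6 summed to 146 to 148 with PonA and 305 to 427 on the other transfected arrays. Within that sum GAP43 gave 64.7 and 75.7 with PonA and 184 to 322 on the other transfected arrays. Of 3 tested neuronal markers above the floor both with and without PonA, 1, GAP43, fell (limma adjusted p = 0.00599), as did 2.21% of all such probe sets. NEFL gave 458 without the construct and 10.1 to 26.5 with it. The 6 haematopoietic markers, with 3 above the floor on all arrays and PTPRC and CD14 on none, summed to 281 to 333 with PonA and 256 to 367 without it. The 8 fibroblast and epithelial markers, with 4 above the floor on all arrays and COL3A1, LUM and EPCAM on none, summed to 2412 to 2500 and 2345 to 2504. The part of SLC1A3, GAP43 and the neuronal sum in the PonA effects given here was not tested.

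Of the 5 members above the floor that were not picked for their PonA values, GPC1 and SDC2 stood above every other transfected array on both PonA arrays, as 16.6% of all 7934 probe sets tested did. So did GPC4, which was picked for it. Between single arrays, GPC4 was 3.85-fold to 5.72-fold higher with PonA, GPC1 1.64-fold to 1.91-fold and SDC2 1.58-fold to 2.72-fold. In the limma fit over the 5 transfected arrays, GPC1 rose 1.82-fold and SDC2 rose 2.19-fold. SDC1, SDC3 and SDC4 did not pass the test. RNA was taken from whole cultures, so more cells with a transcript and more of it per cell cannot be told apart. The signals of GPC3 and GPC5 lay below the floor throughout.

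**Figure D1:**
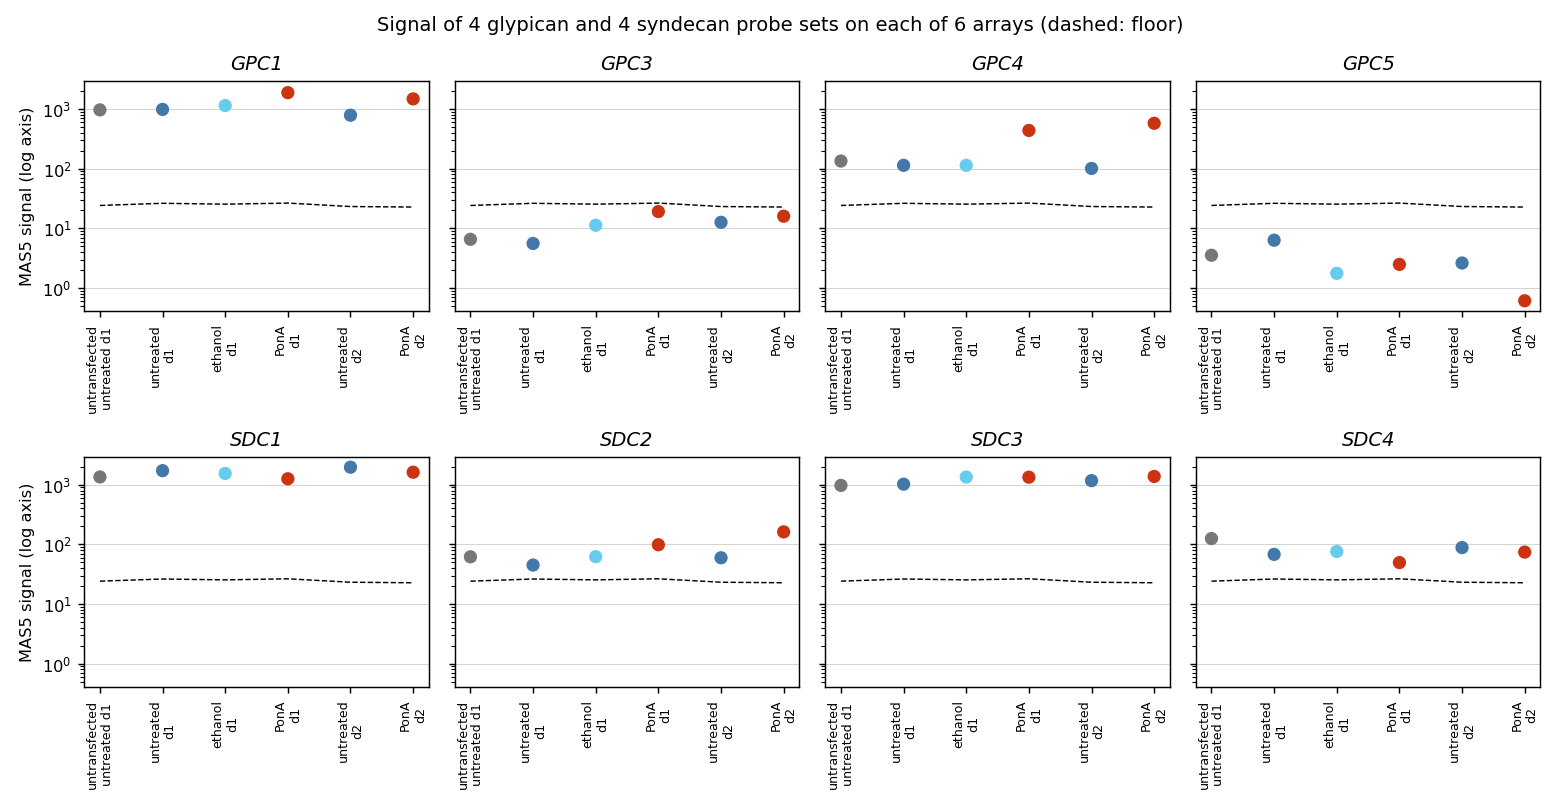
MAS5 signal (log axis) of each of the 8 probe sets on each of the 6 arrays, 1 point per array, with red for PonA, blue for untreated, light blue for ethanol and grey for untransfected cells. The dashed line is the floor of each array, and GPC3 and GPC5 lie under it throughout. The red points of GPC4, at 438 and 578, of GPC1, at 1884 and 1482, and of SDC2, at 98.6 and 162, lie above all other points of their panels.

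GPC4 encodes a glypican that astrocytes release and that promotes the formation of excitatory synapses. Its signal was 114 in untreated and 114 in ethanol-treated transfected cells at day 1, 101 in untreated cells at day 2, and 134 in untransfected cells. With PonA it was 438 at day 1 and 578 at day 2. All 4 arrays without PonA lay within a narrow band, far below both PonA arrays. GPC4 signal with PonA was 3.85-fold that of ethanol and 3.85-fold that of untreated cells at day 1, 2 comparisons that share the PonA array, and at day 2 it was 5.72-fold the untreated signal. In a limma fit with additive terms, which has a PonA and a day term over the 5 transfected arrays, its log2 PonA effect was 2.19 ± 0.20 (SE, the moderated standard error). With the PonA array of day 1 left out this effect was 2.52, and with either array of day 2 left out it was 1.94. Ethanol alone left GPC4 at 0.999 times the untreated signal.

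GPC1 encodes a glypican of the nervous system that helps fibroblast growth factors bind their receptors. Its signal was 987 in untreated and 1147 in ethanol-treated transfected cells at day 1, 788 in untreated cells at day 2, and 968 in untransfected cells. With PonA it was 1884 at day 1 and 1482 at day 2. Both PonA arrays lay above the other 4. The fold over ethanol at day 1 was 1.64, the fold over untreated cells 1.91 at day 1 and 1.88 at day 2, and ethanol alone stood 1.16-fold above untreated cells. GPC1 rose in the limma fit, at 0.86 ± 0.17 in log2 units (adjusted p = 0.0433 after Benjamini-Hochberg adjustment over all probe sets tested). The fit leaves 2 residual degrees of freedom, made of the difference between ethanol and untreated cells at day 1 and the change of the PonA difference from day 1 to day 2, so its p-values do not measure the spread of repeated cultures.

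SDC2 is the syndecan typical of mesenchymal and neural cells. It gave 45.0 in untreated and 62.2 in ethanol-treated transfected cells at day 1, 59.7 in untreated cells at day 2, and 62.0 in untransfected cells. With PonA it gave 98.6 at day 1 and 162 at day 2, again above the other 4 arrays. SDC2 rose in the limma fit, at 1.13 ± 0.23 in log2 units (limma adjusted p = 0.0442). The ethanol array lay 1.38-fold above the untreated one, so the fold of PonA at day 1 was 1.58 over ethanol and 2.19 over untreated cells, and it was 2.72 over untreated cells at day 2.

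These calls are read against all probe sets. Of 7934 tested, 402 or 5.07% passed the threshold of 0.05, 2.7% higher and 2.37% lower with PonA, and both PonA arrays lay below the 3 other transfected arrays for 15.4%. Of the 5 members tested in this fit, GPC4 left aside, 2 rose and 0 fell. At least 2-fold higher with PonA, GPC4 again left aside, were 0 of 5 measured members against ethanol at day 1 (3.22% of all probe sets), and 1 of 5, SDC2, against untreated cells at day 1 (3.58%) and at day 2 (4.67%). By size alone, 6.91% of the tested probe sets had a larger PonA effect than GPC1 and 3.92% a larger one than SDC2. Neither call held throughout when 1 array was left out, which leaves 1 residual degree of freedom. GPC1 kept its call without the ethanol array (adjusted p = 0.0228) and lost it without the untreated array of day 1 (0.0544), the PonA array of day 1 (0.227), the untreated array of day 2 (0.246) or the PonA array of day 2 (0.265), all in limma. SDC2 kept its call in limma without the ethanol array (adjusted p = 0.00484) or the untreated array of day 1 (0.0382) and lost it without the PonA array of day 1 (0.0987), the untreated array of day 2 (0.257) or the PonA array of day 2 (0.277).

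The bases before the start sites of GPC4 and GPC1 are shown because these are the glypicans above the floor whose signal was higher on both PonA arrays. They are the 250 bases upstream of the RefSeq start in GRCh38.p14, at chrX:133415490-133415739 on the minus strand for GPC4 and at chr2:240435413-240435662 on the plus strand for GPC1, written 5′ to 3′ along the gene. Capitals mark the GC box, GGGCGG on either strand, the letters that Sp1-type factors bind.
GPC4: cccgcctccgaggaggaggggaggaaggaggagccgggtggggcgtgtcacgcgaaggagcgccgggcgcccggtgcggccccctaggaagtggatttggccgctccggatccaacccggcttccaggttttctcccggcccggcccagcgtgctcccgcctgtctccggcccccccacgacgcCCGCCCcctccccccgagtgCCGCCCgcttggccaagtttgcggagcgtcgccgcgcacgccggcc
GPC1: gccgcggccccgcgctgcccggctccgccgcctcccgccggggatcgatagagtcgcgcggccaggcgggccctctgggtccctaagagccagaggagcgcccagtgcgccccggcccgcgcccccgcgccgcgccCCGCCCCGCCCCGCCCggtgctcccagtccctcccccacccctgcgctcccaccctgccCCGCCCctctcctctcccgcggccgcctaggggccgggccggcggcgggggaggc
GPC4 held 2 GC boxes and GPC1 held 4, of which 3 overlap end to end by a base. A GC box was present in 42.6% of 35116 RefSeq promoter windows of this length. RefSeq windows were matched for 6 of the 8 genes, so GPC3 and SDC2 were not searched. Among the other matched genes SDC4 held 8 GC boxes, SDC3 held 5 and GPC5 held 2, while each of the 2 windows of SDC1 held 1. The nuclear receptor half-site AGGTCA, searched on both strands, was found in 12.1% of all windows and in none of the 7 windows of these genes, which says only that those letters are not in these 250 bases. The windows of GPC4 and GPC1 were 76.0% and 84.0% G or C, against a median of 58.0% over all windows.

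SDC1, the syndecan of epithelia and plasma cells, gave 1352 in untransfected cells, 1724 in untreated and 1549 in ethanol-treated transfected cells at day 1 and 1971 in untreated cells at day 2. With PonA it gave 1260 at day 1 and 1624 at day 2. The PonA array was the lower one within each day, but the groups overlap, since PonA at day 2 lay above ethanol at day 1. The log2 PonA effect was -0.33 ± 0.17 (SE, limma adjusted p = 0.352), with a 95% interval from -0.74 to 0.07.

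SDC4, a syndecan of focal adhesions that activates protein kinase C alpha, also had its lower value with PonA within each day. It gave 68.0 untreated, 76.0 with ethanol and 49.6 with PonA at day 1, and at day 2 it gave 88.5 without and 74.3 with PonA. The groups overlap, as PonA at day 2 lay above untreated cells at day 1. The log2 PonA effect of SDC4 was -0.41 ± 0.18 (SE, limma adjusted p = 0.268), with a 95% interval from -0.84 to 0.01.

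SDC3, the syndecan of neurons and glia, gave 1024 untreated, 1347 with ethanol and 1340 with PonA at day 1, and at day 2 it gave 1172 without and 1379 with PonA. At day 1 the PonA and ethanol arrays were level, both 1.31-fold to 1.32-fold above untreated cells. The log2 PonA effect was 0.21 ± 0.19 (SE, limma adjusted p = 0.623), with a 95% interval from -0.25 to 0.67, which reaches 1.59-fold higher.

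GPC3, a glypican that restrains Hedgehog signalling, gave 5.58 to 19.1 signal units over the 6 arrays. GPC5, a glypican of brain and kidney, gave 0.610 to 6.32. No fold was computed for either, because all values lay under the floor. GPC3 is the nearest measured gene to GPC4 on the X chromosome on the side of higher coordinates, and on the other side RAP2C and IGSF1, each above the floor on only 1 array, were not tested. HPRT1, a purine salvage gene on the far side of GPC3, had a log2 PonA effect of -0.14 ± 0.18 (SE, limma adjusted p = 0.753). The 2 probe sets of the antisense gene GPC1-AS1 gave at most 4.78, under the floor.

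**Figure D2:**
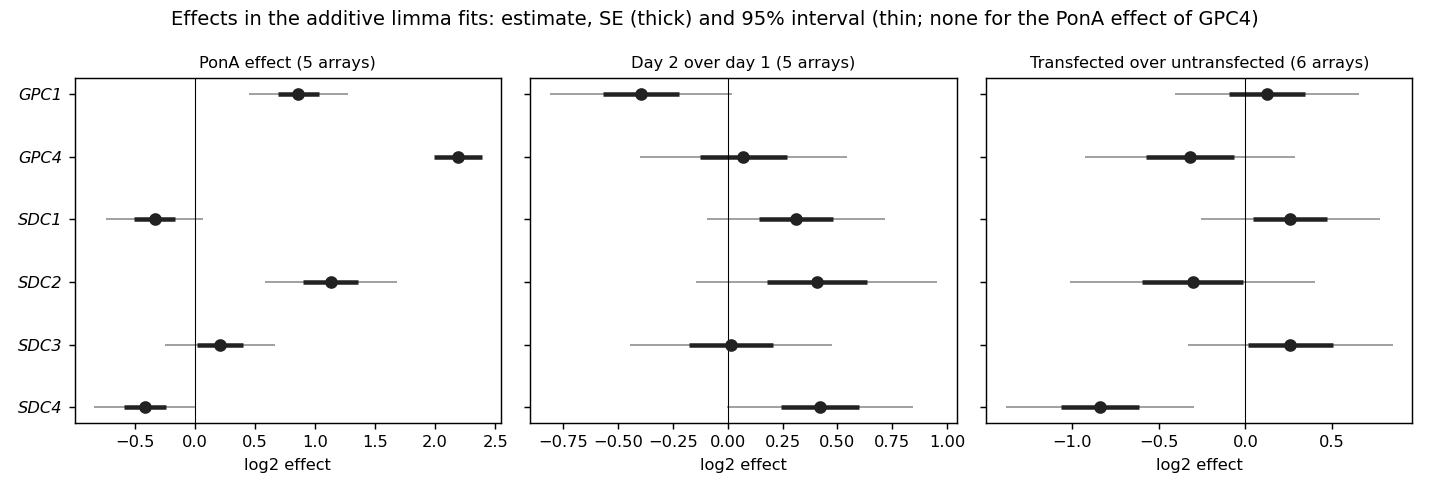
Log2 effects of the 6 probe sets above the floor, with SE as thick bars and 95% intervals as thin bars, for PonA and for day in the fit over 5 arrays and for transfection in the fit over 6 arrays. In the PonA panel GPC4, at 2.19, has no interval because it was chosen on this contrast, the intervals of GPC1 and SDC2 lie above 0, and those of SDC1, SDC3 and SDC4 include 0.

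Whether the PonA difference itself differed between the days was asked with a PonA-by-day term, which leaves 1 residual degree of freedom in limma. No probe set was called (0% of 7934), and 330 had an unadjusted p under 0.05. The term was 0.55 ± 0.46 (SE) for SDC2 and 0.09 ± 0.41 for GPC1. For GPC4 it was 0.57 ± 0.39, given as a description with no test. From day 1 to day 2 with PonA, signal stood at 1.32-fold for GPC4, 1.65-fold for SDC2 and 0.787-fold for GPC1. Without treatment the same ratios were 0.886 for GPC4, 1.33 for SDC2 and 0.799 for GPC1. GPC1 was thus lower at day 2 by about the same ratio with and without PonA.

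The day term of the additive limma fit passed for 0 of 7934 probe sets (1048 at an unadjusted p under 0.05), so 0% were called. The largest day effects among the members were 0.42 ± 0.18 (SE, limma adjusted p = 0.380) for SDC4 and 0.41 ± 0.23 (adjusted p = 0.483) for SDC2, both toward higher signal at day 2. GPC1 had a day effect of -0.40 ± 0.17 (adjusted p = 0.393) in limma. Those of SDC1, GPC4 and SDC3 were 0.31, 0.07 and 0.02.

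Transfected cells were set against the single untransfected array in a limma fit over all 6 arrays, which assumes that this array varies like the others. SDC4 gave 125 in untransfected cells, above all 5 transfected arrays, which lay between 49.6 and 88.5. Its log2 transfection effect was -0.84 ± 0.22 (SE, limma adjusted p = 0.185), which did not pass, and at matched day and treatment the untransfected signal was 1.84-fold the transfected one. The untransfected array lay above all transfected arrays for 21.1% of 8090 probe sets and below them all for 21.5%, and 0.26% passed the threshold. SDC3 was the only other member outside the range of the transfected arrays, at 976 against 1024 to 1379. No measured member was 2-fold apart in any of the other comparisons of 1 array with 1 array: transfected over untransfected (5.72% of all probe sets), ethanol over untreated (2.18%), untreated day 2 over day 1 (3.19%) and PonA day 2 over day 1 (2.93%). Effects of the other 5 tested members were between -0.32 for GPC4 and 0.26 for SDC3, with adjusted p of 0.608 to 0.833 in limma. The 6 members above the floor on the transfected arrays were also above it without the construct, and GPC4 stood at 134 in untransfected cells against 101 to 114 in transfected cells without PonA.

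The enzymes that build the chains are needed by every member. Among 11 genes of heparan sulphate linkage and chain polymerisation, 8 were on the array, 6 were tested and 0 passed, 3 with a positive and 3 with a negative effect and a median of 0.03 on the log2 scale. The median over all 7934 probe sets was 0.01. EXT1 and EXT2, the subunits of the polymerase, had log2 PonA effects of -0.05 ± 0.18 (SE) and 0.10 ± 0.19. EXTL2 and EXTL3, related transferases, had the largest at 0.47 ± 0.17 (limma adjusted p = 0.188) and 0.25 ± 0.16 (adjusted p = 0.479).

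Chain modification was read by 5 genes of 15 listed, of which 4 were tested, 0 passed, and the median log2 effect was 0.002. NDST1, which replaces acetyl with sulphate groups and so opens the chain to further sulphation, gave 182 untreated, 210 with ethanol and 324 with PonA at day 1, and at day 2 it gave 182 without and 295 with PonA. Both PonA arrays lay above the 3 other transfected arrays, as they did for 16.6% of all 7934 probe sets tested. The log2 effect was 0.71 ± 0.17 (SE, limma adjusted p = 0.0712). HS3ST1, a sulphotransferase that makes the antithrombin-binding sequence, had an effect of -0.42 ± 0.19 (adjusted p = 0.305). Of the 5 tested genes of precursor supply 0 passed, with a median of 0.09. The largest effects there were -0.54 ± 0.17 (adjusted p = 0.141) for PAPSS1, which makes the sulphate donor, and 0.24 ± 0.18 (adjusted p = 0.562) for the nucleotide sugar transporter gene SLC35D1. Of 7 genes of GPI anchor assembly that lay above the floor both with and without PonA 0 passed, with a median of 0.03. Here the largest were 0.79 ± 0.17 (adjusted p = 0.0573) for PIGH and -0.63 ± 0.17 (adjusted p = 0.0918) for PIGC, subunits of the enzyme that starts the anchor.

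Among 6 tested genes of chain remodelling and shedding 1 fell and 0 rose, and 5 had a positive effect, with a median of 0.27. The gene that fell was MMP7, a protease that can shed syndecans. It gave 762 untreated, 435 with ethanol and 198 with PonA at day 1, and at day 2 it gave 1230 without and 242 with PonA. Its limma log2 effect was -1.89 ± 0.31 (SE, adjusted p = 0.0233), and ethanol alone was already 1.75-fold below untreated cells. MMP14 and MMP2, other proteases of the cell surface and matrix, had effects of 0.51 ± 0.17 and 0.51 ± 0.17 in limma, which did not pass. A second probe set of MMP14 disagreed in size, at 1.41 ± 0.32 (limma adjusted p = 0.0603).

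The other heparan sulphate proteoglycans were tested for 7 of 10 genes, and 0 passed, with a median log2 effect of 0.23. The largest effects were those of the co-receptor gene NRP1 at 0.57 ± 0.19 (SE, limma adjusted p = 0.170) and of the basement membrane proteoglycan gene AGRN at 0.40 ± 0.16 (adjusted p = 0.251). HSPG2, which encodes perlecan, stood at -0.03 ± 0.18. Of 6 tested chondroitin and dermatan sulphate proteoglycans 1 rose, 0 fell, and the median was 0.52. PTPRZ1, a receptor phosphatase of glia that carries chondroitin sulphate, gave 274 untreated, 214 with ethanol and 494 with PonA at day 1, and at day 2 it gave 269 without and 633 with PonA. It rose 2.17-fold (log2 1.12 ± 0.19, limma adjusted p = 0.0261), and it was at 196 in untransfected cells.

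Of 9 tested cytoplasmic partners of the syndecans 0 passed, with a median log2 effect of 0.10. PRKCA, the kinase that SDC4 activates, had an effect of 0.75 ± 0.19 (SE, limma adjusted p = 0.0852), and its other probe sets above the floor had effects of 0.43 ± 0.16 and 0.53 ± 0.32. EZR, which links the membrane to actin, had one of 0.55 ± 0.18 (adjusted p = 0.160), and SDCBP, the syntenin gene whose product binds syndecan tails, one of 0.04 ± 0.17.

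Ligands and receptors were counted where they lay above the floor on at least 1 transfected array with PonA and 1 without, since a gene that passes the filter through a single group had to differ. Of 17 such ligands 2 rose, 0 fell, and the median was 0.31. HBEGF, a heparin-binding ligand of the EGF receptor, gave 32.9 untreated, 45.9 with ethanol and 165 with PonA at day 1, and at day 2 it gave 41.8 without and 271 with PonA, with a log2 effect of 2.35 ± 0.24 (limma adjusted p = 0.00490). WNT5A, a Wnt of the non-canonical branch, gave 33.9, 34.9 and 100 in the same order at day 1, and at day 2 it gave 37.4 without and 111 with PonA. It rose 2.94-fold (log2 1.56 ± 0.16, limma adjusted p = 0.00542), and its second probe set had an effect of 1.05 ± 0.22 (adjusted p = 0.0499). FGF2, a classical ligand of these chains, had an effect of -0.24 ± 0.24 (adjusted p = 0.657) in limma.

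Of 12 such receptors 1 rose and 1 fell, with a median of 0.10. KDR, a VEGF receptor, is left out of these counts, because it lay under the floor on all 4 arrays without PonA. It gave 236 and 418 with PonA, at least 8.96-fold higher in each of the 3 comparisons, and carries no test. A second probe set of KDR had a log2 PonA effect of 1.17 against 3.61. Both values are lower bounds set by the floor, so their sizes cannot be compared. That probe set gave 52.4 and 59.7 with PonA and 4.19 to 10.3, under the floor, on the arrays without PonA. The Wnt receptor gene FZD7 rose 1.73-fold (log2 0.79 ± 0.16, limma adjusted p = 0.0489), from 83.5 untreated and 87.0 with ethanol to 143 under PonA at day 1, and at day 2 from 66.5 to 119. FZD2, of the same family, fell with a log2 effect of -0.98 ± 0.17 (limma adjusted p = 0.0261), from 304 untreated and 334 with ethanol to 158 at day 1, and at day 2 from 295 to 155. Its second probe set had an effect of -0.92 ± 0.20 (adjusted p = 0.0549). FGFR1, a receptor for fibroblast growth factors, had an effect of 0.60 ± 0.20 (adjusted p = 0.158) in limma.

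Over these 10 lists 84 genes were tested, of which 5 were above the floor in a single group. Of the other 79, 4 rose and 2 fell, with 51 positive and 28 negative effects and a median of 0.14. Among all 7661 probe sets above the floor both with and without PonA, 2.58% were called higher and 2.21% lower. The lists take only the brightest probe set of a gene and were chosen with earlier results of these data known. The shares are therefore given beside the counts and do not test the lists. Of the 6 genes called, all 6 kept the call without the ethanol array in limma. Without the untreated array of day 1, FZD7 alone of the 6 lost it (limma adjusted p = 0.0616). Without the PonA array of day 1, 3 of 6 kept it, without the untreated array of day 2, 2 of 6, and without the PonA array of day 2, 2 of 6, with adjusted p of up to 0.249, 0.288 and 0.308 in limma. FZD2, FZD7 and PTPRZ1 lost the call in each of these 3 fits, and MMP7 lost it without either array of day 2.

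**Figure D3:**
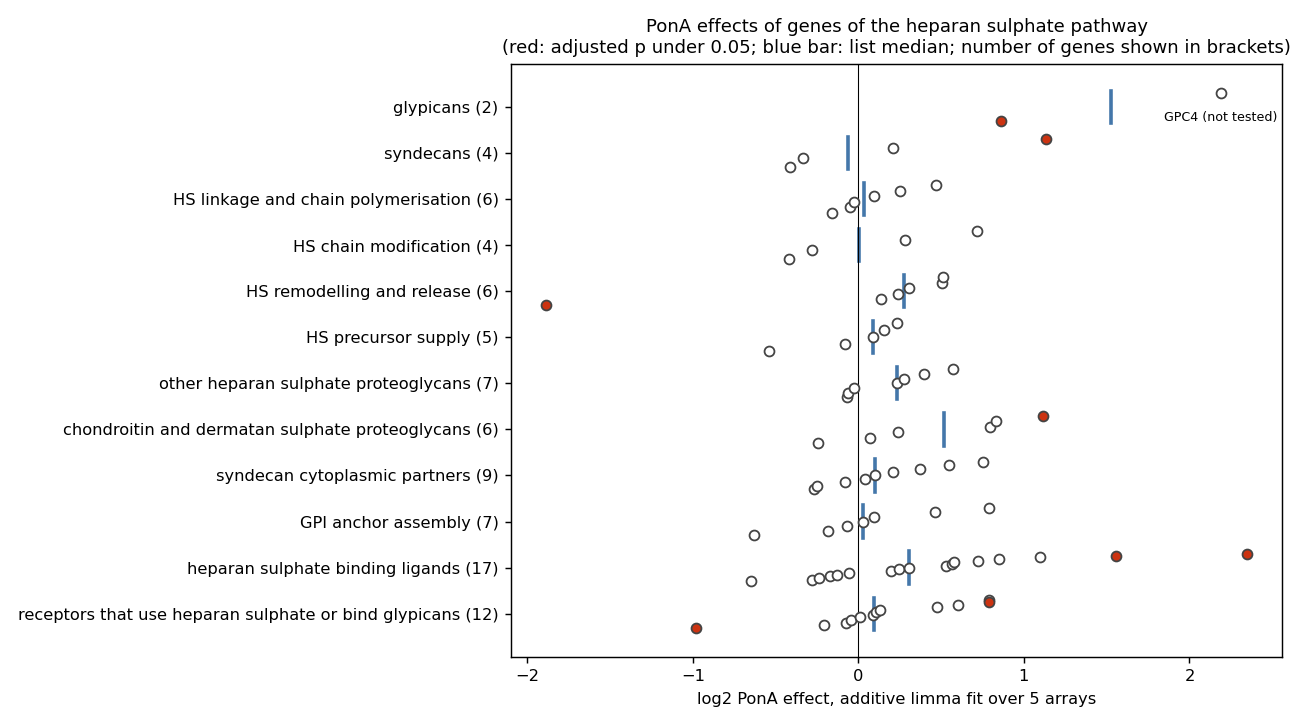
Log2 PonA effects (limma fit over 5 arrays) of each gene above the floor both with and without PonA, 1 point per gene, grouped by role, with HS for heparan sulphate, red for an adjusted p under 0.05 and a blue bar for the median of the list. Glypicans and syndecans are at the top, with GPC4 at 2.19 unfilled because it was not tested, and the points furthest from 0 are HBEGF on the right and MMP7 on the left.

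The genes whose pattern was most like that of GPC4 were sought by Pearson correlation of floored log2 signal over the 6 arrays, among 1757 genes above the floor on at least 2 arrays with a range of at least 2-fold. They were RIN2 (r = 0.999), SAMD4A (r = 0.999), RGS4 (r = 0.993), KDR (r = 0.993, with 4 of its 6 points at the floor) and WNT5A (r = 0.992). All points share the same 6 arrays, and each r rests mainly on the distance of the 2 PonA arrays from the other 4. SAMD4A, which encodes an RNA-binding protein, gave 36.1 with ethanol against 134 with PonA at day 1, and 31.2 without against 196 with PonA at day 2. RIN2, an exchange factor for Rab proteins, gave 144, 669, 136 and 995 on the same 4 arrays, and its second probe set had a smaller log2 PonA effect, 1.15 against 2.47.

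For GPC1 the most similar genes were TRAF4 (r = 0.995), EPAS1 (r = 0.991) and FZD7 (r = 0.990), over the same 6 arrays. EPAS1, a hypoxia-inducible transcription factor gene, gave 158 with ethanol against 542 with PonA at day 1, and 88.3 without against 280 with PonA at day 2, so that, as for GPC1, the PonA signal was higher at day 1 than at day 2. For SDC2 they were DUSP14 (r = 0.991), TMEM47 (r = 0.982) and DHCR7 (r = 0.970), with more signal on the PonA array of day 2 than on that of day 1. For SDC4 they were MAD1L1 (r = 0.994), CSRP2 (r = 0.974) and IDH3A (r = 0.971), all highest in untransfected cells and lowest with PonA at day 1, or, for MAD1L1, under the floor there.

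**Figure D4:**
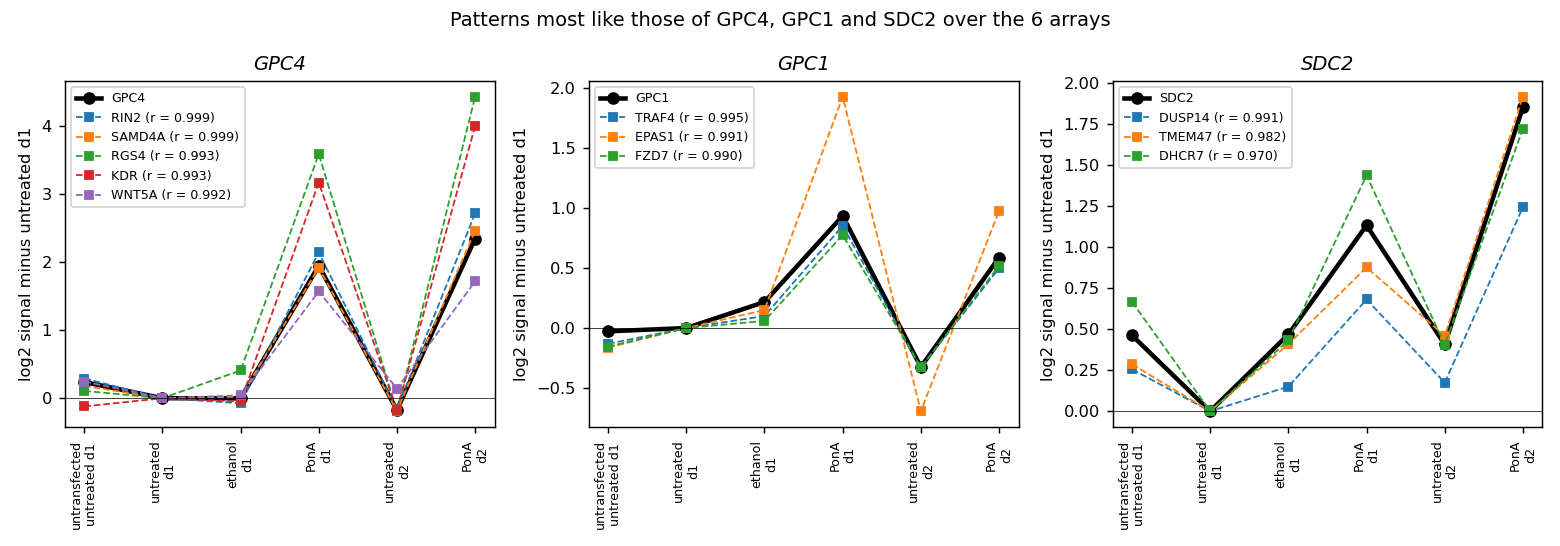
Floored log2 signal minus that of untreated transfected cells at day 1, on each of the 6 arrays, for GPC4, GPC1 and SDC2 (black) and the genes with the highest Pearson r (dashed, coloured). GPC4 and SDC2 stand higher on the PonA array of day 2 than on that of day 1, and GPC1 stands higher on that of day 1.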

How the data were processed

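RNA of U373 cells was measured on 6 arrays, 1 for each of 6 groups taken from the labels. MAS5 is the tool named per the submitters' processing notes; its version and a genome build are not given in the sources used here. The deposited values are MAS5 intensity (signal) per probe set on a linear scale, scaled by the authors so that the mean without the lowest and highest 2% of probe sets is 150.1 on every array. Control probe sets (67) were left out of the tests. Of 12558 others, 10943 had 1 gene symbol, 545 several and 1070 none. Symbols were updated through Entrez identifiers to RefSeq (GRCh38.p14), with 10934 matched, and the brightest probe set stood for a gene.

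A floor at the 40th percentile of each array replaced lower signals before the log2 scale was taken. Probe sets above that floor on at least 2 arrays of a fit were tested with lmFit and eBayes (limma 3.58.1, R 4.3.3), with p-values adjusted by Benjamini-Hochberg and called under 0.05. The fit was tested on simulated data with independent errors on each array. That cannot show whether its p-values hold here, where no condition was repeated. Comparisons of 1 array with 1 array have no test. The members and gene lists were chosen with earlier results of these data known. Named are all members, every called gene of each pathway list or else its 2 largest effects, the genes of most similar pattern, the neighbours of GPC4, the antisense gene of GPC1, and, chosen after their values were seen, EXT1, EXT2, MMP2, MMP14, HSPG2, SDCBP, FGF2, FGFR1, SULF1 and the cell type markers. Counting only list genes above the floor both with and without PonA was chosen after seeing the data. Alternatives were another floor, an offset, quantile normalization, other filters, a trend, no day term and leaving out each array.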

Additional observations from a re-analysis of the deposited data

How the results depend on the processing

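With 1 array per group, a p-value sets the PonA effect against the ethanol difference at day 1 and the change of the PonA difference between days, with 4.48 prior degrees of freedom drawn from all probe sets. The cause of the moves below was not tested, except that leaving out an array leaves 1 residual degree of freedom. No paired analysis was possible because each group holds 1 array and the labels give no replicate numbers.

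The number of probe sets called for PonA, 402, was 107 with the floor at the 20th percentile, 29 with no filter, 625 with a trend, and 111 to 725 when 1 array was left out. GPC1, at a log2 effect of 0.86, lost its call with the floor at the 20th percentile (0.86, limma adjusted p = 0.147), with no filter (0.86, adjusted p = 0.0697) and without the day term (0.80, adjusted p = 0.109), and ranged from 0.81 to 0.92 when 1 array was left out. SDC2 lost its call with the floor at the 20th percentile (1.13, limma adjusted p = 0.155), under quantile normalization (1.10, adjusted p = 0.0675) and with no filter (1.13, adjusted p = 0.138), and ranged from 0.90 to 1.44 without 1 array. GPC4 ranged from 1.94 to 2.52 without 1 array and from 2.04 to 2.20 under the other alternatives. The PonA effects of SDC1, SDC3 and SDC4 kept their sign and did not pass under any alternative run.

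The day term called 2 probe sets with a trend and 0 to 16 without 1 array. The day effect of GPC4, 0.07, ranged from -0.17 to 0.40 without 1 array, and that of SDC3, 0.02, from -0.080 to 0.12, with -0.019 under quantile normalization; neither was called. The transfection term, at 21 calls, gave 0 with the floor at the 20th percentile (limma), 46 with an offset of 16, 7 under quantile normalization, 0 with no filter, 115 with a trend and 24 to 99 without 1 array. At least 2-fold apart with the floor at the 20th percentile were 1064 probe sets for PonA over ethanol, 1241 and 1337 for PonA over untreated at day 1 and day 2, 861 for ethanol over untreated, 1329 for transfected over untransfected, 1017 for untreated day 2 over day 1 and 773 for PonA day 2 over day 1, against 450, 539, 696, 175, 460, 255 and 233 with the floor used. Of the 6 pathway genes called, 2 stayed called with the floor at the 20th percentile (limma), 1 with no filter and 5 under quantile normalization. With an offset of 16, 5 of these 6 stayed called. KDR is not counted here, because it carries no test.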

Other observations

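SULF1, which encodes an extracellular enzyme that removes sulphate from heparan sulphate chains, was above the floor only in untransfected cells. Its signal was 58.7 there and 2.61 to 4.64 on the 5 transfected arrays, all under the floor, and this gene was chosen after its values were seen. It was not tested, because it was above the floor on 1 array and the fit takes probe sets above it on at least 2. Among the 8090 probe sets that were tested, the single untransfected array lay above all 5 transfected arrays for 21.1%. That share counts a difference of any size and leaves out SULF1. The share above the floor on the untransfected array alone was not computed.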
